A study of Mus musculus with 8 samples.

Results

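The CCAAT/enhancer binding proteins (C/EBP) are encoded by Cebpa, Cebpb, Cebpd, Cebpe and Cebpg, and the name is shared by Cebpz, which encodes a protein of another kind. Gene rows with these 6 names were taken from the deposited tables and summed per NCBI gene ID, giving 6 of the 21989 genes with exon counts, and all 6 passed the filter on low counts that kept 12749 genes. Their expression was compared between 2 fractions of mouse bone marrow by bulk RNA-seq. The HSC fraction (hematopoietic stem cells in the labels) was sorted as CD150+, CD34-, Sca1+, c-Kit+ and Lineage-, and the HPC fraction as CD150+, CD34+, Sca1+, c-Kit+ and Lineage-, so that the labels differ in CD34 alone. All mice were of the strain C57BL/6, aged 8 to 10 weeks, with no allele or agent named. Each fraction had 4 libraries. The protocol given for all 8 libraries names 5000 sorted cells and 18 cycles of cDNA amplification but speaks of HSC only, and it does not say whether cells of several mice were pooled. The labels do not state separate animals for the libraries, and the p-values thus reflect how these samples vary among themselves, which may be technical variation.

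Exon reads per library numbered 16291733 to 19070313 in HSC and 18223082 to 20564901 in HPC. Cd34, the gene of the gate, stood at 102 to 139 CPM (counts per 1000000 reads, scaled by TMM) in HSC libraries and at 1206 to 1342 CPM in HPC libraries. Slamf1, the gene of CD150, for which both fractions are labelled positive, was at 45.5, 39.1, 33.8 and 32.1 CPM in HSC replicates 1 to 4 and at only 3.59, 2.73, 3.90 and 2.32 CPM in HPC replicates 1 to 4 (log2 3.58 ± 0.20, edgeR adjusted p = 6.59e-09). Cd34 thus went with the labels in every library, while the low Slamf1 of all 4 HPC libraries goes against the CD150+ part of their label, as far as transcripts can show it. Markers of mature myeloid cells are given below beside the genes they move with.

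C/EBPα, β, δ, ε and γ are basic leucine zipper (bZIP) proteins, which pair through the zipper and contact DNA through the basic region. In blood formation C/EBPα is known for the step from multipotent progenitors to granulocyte and monocyte progenitors, C/EBPβ for emergency granulopoiesis and macrophages, C/EBPδ for the inflammatory response and C/EBPε for the late maturation of neutrophils and eosinophils. C/EBPγ lacks a strong activation domain, dimerises with the other members and with ATF4, and takes part in the amino acid and stress response. C/EBPζ is a CCAAT-binding factor of the nucleolus, related to yeast Noc1, and acts in the assembly of the large ribosomal subunit.

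The stretch of 36 bases (12 codons) that encodes the basic region is printed first, since it shows how alike reads of the bZIP genes can be. It was searched for by a pattern of residues written for these bZIP proteins, so finding it is no test of family membership. It was found in the GENCODE transcripts of Cebpa, Cebpb, Cebpd, Cebpe and Cebpg and in none of the reading frames of Cebpz. The sequences are given 5′ to 3′ on the coding strand of GRCm38, and capitals mark the 23 bases that all 5 genes share.
Cebpa, chr7:35120292-35120327, plus strand: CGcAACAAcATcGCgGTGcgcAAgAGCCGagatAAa
Cebpb, chr2:167689712-167689747, plus strand: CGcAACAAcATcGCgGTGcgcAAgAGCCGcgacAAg
Cebpd, chr16:15887922-15887957, plus strand: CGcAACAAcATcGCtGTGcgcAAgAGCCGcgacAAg
Cebpe, chr14:54710713-54710748, minus strand: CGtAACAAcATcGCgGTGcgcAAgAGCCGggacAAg
Cebpg, chr7:35050591-35050626, minus strand: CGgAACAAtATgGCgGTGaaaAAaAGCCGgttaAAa
In this stretch Cebpb and Cebpd were identical at 35 of 36 bases, Cebpa and Cebpb at 33, and Cebpg shared 23 to 25 bases with each of the others. Over whole transcripts the longest run shared by any 2 of the genes was 29 bases, between Cebpa and Cebpb. In the deposited tables all exon reads of Cebpa, Cebpb, Cebpe and Cebpg were uniquely placed in every library, so the likeness of these genes did not cost them unique placement. For Cebpd 90.9% to 95.9% of exon reads per library were uniquely placed, and for Cebpz 87.1% to 94.0%. The reason was not tested.

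The 250 bases before the annotated start were found in RefSeq (GRCm38.p6) for 3 of the 6 genes. They are shown for Cebpa, Cebpb and Cebpg, since none was found for Cebpd, Cebpe and Cebpz. The 3 promoters differ in the motifs they hold, and a link to the levels of the genes was not tested. Capitals mark matches, on either strand, to the CCAAT box (CCAAT), the TATA box (TATAAA) and 6 letters of the C/EBP site (TTGCGC).
Cebpa, chr7:35119043-35119292, plus strand: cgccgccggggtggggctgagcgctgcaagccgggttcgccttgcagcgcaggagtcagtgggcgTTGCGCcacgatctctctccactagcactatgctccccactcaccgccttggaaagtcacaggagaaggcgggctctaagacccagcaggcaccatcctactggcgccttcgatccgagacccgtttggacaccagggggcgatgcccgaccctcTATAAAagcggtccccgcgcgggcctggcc
Cebpb, chr2:167688665-167688914, plus strand: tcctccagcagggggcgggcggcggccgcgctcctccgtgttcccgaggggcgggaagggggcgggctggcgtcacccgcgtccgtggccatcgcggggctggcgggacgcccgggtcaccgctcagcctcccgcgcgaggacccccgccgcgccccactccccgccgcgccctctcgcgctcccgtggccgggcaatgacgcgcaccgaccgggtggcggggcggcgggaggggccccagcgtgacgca
Cebpg, chr7:35056567-35056816, minus strand: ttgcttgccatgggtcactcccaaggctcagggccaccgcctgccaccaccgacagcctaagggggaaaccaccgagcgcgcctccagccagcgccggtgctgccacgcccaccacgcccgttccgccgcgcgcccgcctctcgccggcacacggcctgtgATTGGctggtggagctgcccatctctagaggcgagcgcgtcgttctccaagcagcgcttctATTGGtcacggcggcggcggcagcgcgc
The Cebpa window held TATAAA 30 bases and TTGCGC 185 bases before the start. The Cebpg window held CCAAT, in the reverse direction, 89 and 28 bases before the start. The Cebpb window held none of the 3 motifs but 5 copies of GGGCGG, the GC box, which are not in capitals. It was 81.6% G and C, against 66.4% for Cebpa and 70.8% for Cebpg. Of 27025 promoter windows of this length, 34.5% held CCAAT, 12.97% TATAAA, 5.51% TTGCGC and 32.9% GGGCGG on either strand. The longer site TTGCNNAA, found in 9.55% of all windows, was in none of the 3. These matches describe letters and are no evidence of binding.

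Between the fractions, 4 of the 6 genes were lower in HSC, none was called higher and 2 had no call (quasi-likelihood test of edgeR, with p adjusted by Benjamini-Hochberg over all 12749 genes and a threshold of 0.05). Among all genes tested 37.1% were called, 19.5% higher and 17.6% lower in HSC. At an unadjusted p under 0.05 edgeR put 1 of the 6 genes, Cebpb, higher, and DESeq2, voom and limma on TPM each called 0 of them higher. DESeq2 called 4 of the 6 genes lower, and voom and limma on TPM called 3 each. Cebpa changed most, Cebpe less, and Cebpd and Cebpg by at most 1.89-fold. Cebpb had the highest point estimate but differed widely between libraries of the same fraction. The median log2 change of the 6 genes was −0.66, against 0.00 for all genes tested. In bulk samples fewer cells that carry a transcript and less of it per cell cannot be told apart.

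**Figure D1:**
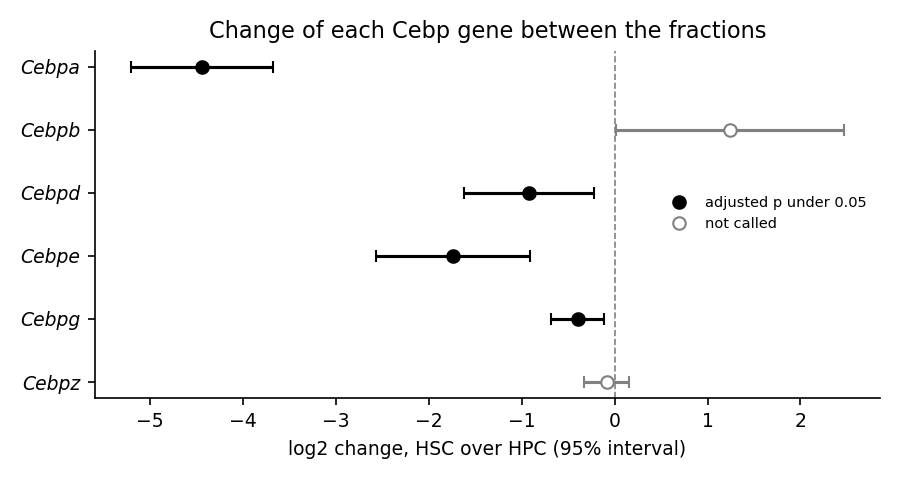
Log2 change of each of the 6 genes, HSC over HPC, from the edgeR fit over 8 libraries. Points are the estimates and bars their 95% intervals. The intervals of Cebpa, Cebpe, Cebpd and Cebpg lie below 0, that of Cebpb reaches from 0.0099 to 2.47 and that of Cebpz spans 0.

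Cebpa (gene 12606, chromosome 7, 35119293 to 35121928, mm10, plus strand, a single exon of 2636 bases), which drives the granulocyte and monocyte fate, was far lower in HSC than in HPC. It stood at 0.668, 3.13, 1.12 and 0.736 TPM in HSC replicates 1 to 4, against 32.9, 24.2, 30.4 and 29.8 TPM in HPC replicates 1 to 4. The fractions lay far apart, with HSC replicate 2 the highest of the HSC libraries. As for all genes here, TPM is the authors' length-scaled value summed per gene. The HSC values rest on 15, 76, 27 and 20 exon reads and the HPC values on 828, 652, 714 and 801. On the scale of CPM, Cebpa averaged 1.82 ± 1.45 in HSC and 40.1 ± 5.48 in HPC (SD, n = 4 each), 22.0-fold lower in HSC. The log2 change was −4.44 ± 0.36 (SE; edgeR adjusted p = 2.33e-07), which ranked 316 by p among all genes tested.

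HSC replicate 2 also carried more of other myeloid transcripts than the rest of its group. Mpo, the myeloperoxidase of primary granules and a C/EBPα target, was at 52.8, 136, 37.2 and 37.2 CPM in HSC replicates 1 to 4 and at 2446, 1894, 1462 and 1988 CPM in HPC replicates 1 to 4. Of 10 neutrophil and monocyte markers tested, 9 were highest of the HSC libraries in replicate 2, as were 21.01% of all genes tested. The summed level of these markers was 459 CPM there and 214 to 263 CPM in the other HSC libraries, and 311 to 647 CPM in HPC libraries. Among HPC libraries, replicate 1 was the highest for 8 of the 10 markers, against 23.6% of all genes tested. Ly6g, a defining marker of mature neutrophils, was at 0 reads in all 8 libraries. Lyz2, the lysozyme gene and the most abundant of the list, was at 182, 240, 176 and 167 CPM in HSC libraries and 294, 165, 254 and 334 CPM in HPC libraries, with no call (log2 −0.45 ± 0.18, edgeR adjusted p = 0.061). Lyz2 was called lower in 6 of 26 alternatives. Among these were DESeq2 on all 8 libraries (−0.45, DESeq2 adjusted p = 0.0318) and the fits without HSC replicate 2 (−0.58, edgeR adjusted p = 0.0268) or HPC replicate 2 (−0.62, edgeR adjusted p = 0.00301). Without HSC replicate 2 the change of Cebpa was −5.16 ± 0.23 (edgeR adjusted p = 2.52e-09) and that of Mpo −5.52 against −4.89 with it.

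**Figure D2:**
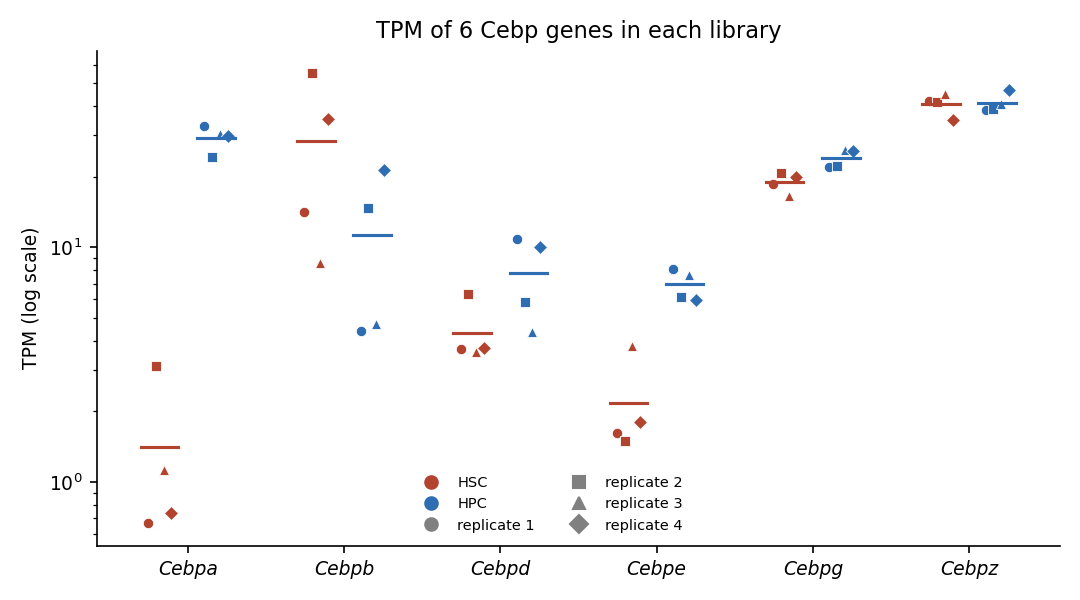
TPM of the 6 genes in every library on a log scale, HSC (red) left of HPC (blue). Marker shapes give the replicate number and lines the mean of 4 libraries. Cebpa in HSC lies at 0.668 to 3.13 TPM, under the 24.2 to 32.9 TPM of HPC, while the Cebpb values of the fractions overlap.

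Cebpb (gene 12608, chromosome 2, 167688915 to 167690432, plus strand, a single exon of 1518 bases) varied more between libraries of a fraction than between the fractions. It stood at 14.2, 55.2, 8.59 and 35.4 TPM in HSC replicates 1 to 4, against 4.41, 14.7, 4.73 and 21.4 TPM in HPC replicates 1 to 4. The fractions overlapped, and in both of them replicates 2 and 4 were the 2 highest. Counts were ample, with 119 to 772 exon reads per HSC library and 64 to 332 per HPC library. Cebpb averaged 21.6 ± 16.0 CPM in HSC against 9.15 ± 7.16 CPM in HPC (SD, n = 4 each), and its log2 change was 1.24 ± 0.57, with no call (edgeR adjusted p = 0.108). The coefficient of variation of CPM within a fraction was 74.0% in HSC and 78.2% in HPC, against 4.80% to 79.6% in HSC and 12.1% to 43.4% in HPC for the other 5 genes. The 95% interval of the change ran from 0.0099 to 2.47 on the log2 scale, so these libraries do not show that the fractions were alike. Leaving out HPC replicate 4 (log2 1.81, edgeR adjusted p = 0.0261) or HSC replicate 3 (1.56, edgeR adjusted p = 0.0330) put Cebpb past the threshold, and without HSC replicate 2 the change was 0.75 (edgeR adjusted p = 0.358). Without the libraries numbered 2 and 4 of both fractions, a choice made after their Cebpb levels were seen, it was 1.28 (edgeR adjusted p = 0.0417). With the replicate number as a block Cebpb was called higher (1.24, edgeR adjusted p = 0.00133), but no label pairs the libraries by that number.

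The genes whose log2 CPM followed Cebpb most closely over the 8 libraries were Carm1, an arginine methyltransferase (Pearson r = 0.987), Hdgf, a chromatin-associated growth factor (0.982), and Spns2, a sphingosine-1-phosphate transporter (0.975). They ranked highest among 10121 named genes of mean level 5 CPM or more, and none was called between the fractions. Hdgf was at 311, 505, 243 and 549 CPM in HSC replicates 1 to 4 and at 175, 354, 181 and 434 CPM in HPC replicates 1 to 4, so its 2 high libraries in each fraction were again those numbered 2 and 4. The transcript of Cebpb has 67.2% G and C, above 99.8% of genes. The 631 tested genes in the top 5% of G and C content, from 59.6% upward, were set against their fraction means. Their median deviations on the log2 scale were −0.0045, 0.013, −0.038 and 0.047 in HSC replicates 1 to 4. In HPC replicates 1 to 4 they were 0.025, 0.064, −0.097 and 0.015. Replicates 2 and 4 were thus the highest in HSC, and replicates 2 and 1 in HPC. With the trend on G and C content removed from each library, an alternative chosen after seeing the data, the change of Cebpb was 1.17 (edgeR adjusted p = 0.104). Fos and Jun, which handling of cells can induce, were not highest in replicates 2 and 4 of both fractions, although Fos was so in HPC. Fos was at 51.0, 41.8, 18.0 and 44.4 CPM in HSC replicates 1 to 4 and at 23.5, 28.5, 13.5 and 25.7 CPM in HPC replicates 1 to 4, and Jun was at 212, 209, 153 and 189 CPM and at 273, 290, 177 and 196 CPM in the same order. What sets replicates 2 and 4 apart for Cebpb was not tested.

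**Figure D3:**
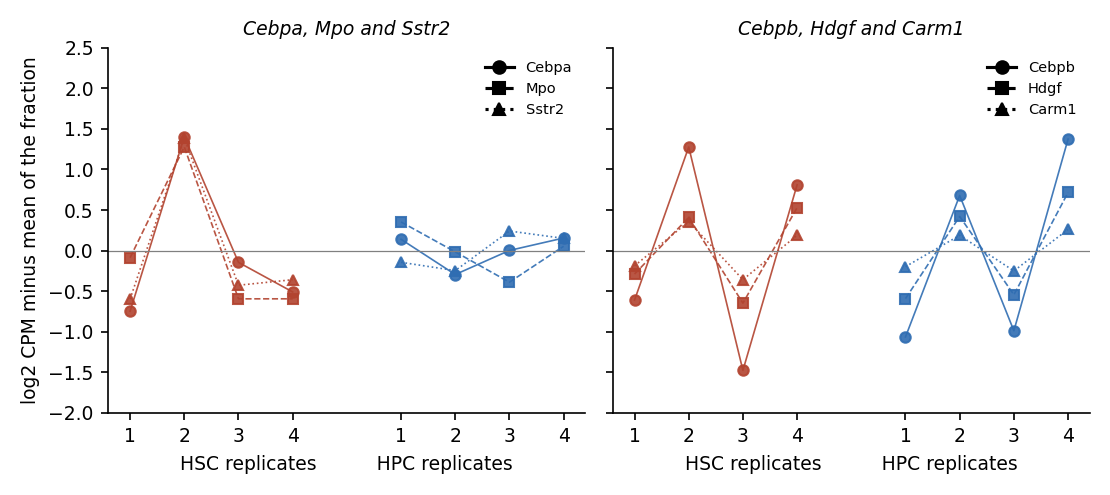
Log2 CPM of single genes in each library minus the mean of the gene's own fraction, HSC replicates (red) left of HPC replicates (blue). In the left panel Cebpa, Mpo and Sstr2 are highest in HSC replicate 2 among HSC libraries. In the right panel Cebpb, Hdgf and Carm1 are above their mean in replicates 2 and 4 of both fractions.

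Cebpe (gene 110794, chromosome 14, 54710363 to 54712174, minus strand, 2 exons, 1238 bases), the factor of late granulocyte maturation, was 3.37-fold lower in HSC. It stood at 1.61, 1.49, 3.81 and 1.80 TPM in HSC replicates 1 to 4, against 8.11, 6.16, 7.62 and 5.94 TPM in HPC replicates 1 to 4. The fractions did not overlap, which held for 36.7% of all genes tested, and HSC replicate 3 was the highest of the HSC libraries. The log2 change was −1.74 ± 0.39 (edgeR adjusted p = 0.00247), with 1.32 ± 0.578 CPM in HSC against 4.44 ± 0.538 CPM in HPC (SD, n = 4 each). Reads were few, at 17, 17, 43 and 23 in HSC and 75 to 96 in HPC, and spliced reads across its junction were 0 to 9 per HSC library and 11 to 21 per HPC library. Mast cell, basophil and eosinophil markers went the same way, with 8 of 10 lower in HSC, 0 higher by edgeR, DESeq2, voom or limma on TPM or at an unadjusted edgeR p under 0.05, and a summed level of 8.68 to 101 CPM in HSC libraries and 164 to 271 CPM in HPC libraries. The 101 CPM were in HSC replicate 3, where the eosinophil genes Prg2 and Epx were at 55.2 and 5.89 CPM, against 0.417 to 2.77 CPM for Prg2 and 0 reads for Epx in the other HSC libraries. In HPC replicate 1, the HPC library with the most Cebpe, Prg2 and Epx were at only 3.33 and 0.0529 CPM. In HPC replicates 2 to 4 Prg2 was at 55.7, 77.6 and 60.4 CPM and Epx at 8.79, 12.1 and 5.91 CPM. Cma1 and Tpsb2, proteases of mast cells, were at 0 reads in all 4 HSC libraries. The part of these cells in the result for Cebpe was not tested. Without HSC replicate 3 its change was −2.08 (edgeR adjusted p = 0.00115), and without the libraries numbered 2 and 4 of both fractions the call was lost (−1.61, edgeR adjusted p = 0.0568).

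Cebpd (gene 12609, chromosome 16, 15887286 to 15889545, plus strand, a single exon of 2260 bases), a factor of the acute phase response, was lower in HSC by a call that did not hold in every setting. It stood at 3.69, 6.34, 3.59 and 3.73 TPM in HSC replicates 1 to 4, against 10.8, 5.84, 4.37 and 10.1 TPM in HPC replicates 1 to 4. The fractions overlapped, and the 2 high HPC libraries were replicates 1 and 4. The log2 change was −0.92 ± 0.33 (edgeR adjusted p = 0.0396), with 4.86 ± 1.41 CPM in HSC against 9.20 ± 3.99 CPM in HPC (SD, n = 4 each). The call was lost without HPC replicate 1 (−0.75, edgeR adjusted p = 0.123), without HPC replicate 4 (−0.72, 0.123), without HSC replicate 1 (−0.86, 0.0928), 3 (−0.80, 0.0990) or 4 (−0.90, 0.0716), and when uniquely placed reads alone were counted (−0.88, 0.0504). The gene overlaps Spidr, a DNA repair gene on the opposite strand, over 322 bases. Spidr was also lower in HSC, at 32.3 ± 3.76 CPM against 51.5 ± 6.78 CPM in HPC (log2 −0.67 ± 0.13, edgeR adjusted p = 9.54e-04). Whether counting used strand is not given in the sources used here, so reads of the overlap cannot be told apart.

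Cebpg (gene 12611, chromosome 7, 35046422 to 35056566, minus strand, 2 exons, 4702 bases), the partner of ATF4 and of the other C/EBP proteins, was abundant in both fractions and 1.32-fold lower in HSC. It stood at 18.6, 20.7, 16.5 and 19.9 TPM in HSC replicates 1 to 4, against 22.1, 22.3, 25.9 and 25.7 TPM in HPC replicates 1 to 4. The fractions did not overlap, but the highest HSC library and the lowest HPC library lay close together. The log2 change was −0.40 ± 0.13 (edgeR adjusted p = 0.0301), with 44.4 ± 6.45 CPM in HSC against 58.6 ± 7.32 CPM in HPC (SD, n = 4 each). The call was lost without HPC replicate 3 or 4 and without HSC replicate 1 or 3, with changes from −0.48 to −0.30 over the 8 fits that left out 1 library.

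Cebpz (gene 12607, chromosome 17, 78919003 to 78937070, minus strand, 18 exons, 4077 bases), the ribosome assembly factor, was abundant in both fractions and had no call. It stood at 41.9, 41.5, 45.1 and 35.0 TPM in HSC replicates 1 to 4, against 38.4, 38.8, 41.0 and 47.0 TPM in HPC replicates 1 to 4. The fractions overlapped, and HPC replicate 4 stood above the other HPC libraries. The log2 change was −0.09 ± 0.11 (edgeR adjusted p = 0.589), and its 95% interval ran from −0.33 to 0.15. Reads in introns made up 31.7 ± 1.28% of the gene's reads in HSC and 26.7 ± 4.33% in HPC (SD, n = 4 each), with overlapping ranges. It starts 36 bases from Ndufaf7, on the opposite strand, and its 3′ end overlaps Cebpzos, on the opposite strand, over 2046 bases. As for Cebpd, reads of the overlap cannot be told apart. The intron share of Cebpz may thus hold reads of Cebpzos, which was not tested. Cebpzos had no call (log2 0.23 ± 0.16, edgeR adjusted p = 0.276).

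Set side by side per length, the fractions differed in which bZIP member led. In HSC the mean levels ran from Cebpb (28.3 ± 21.3 TPM) through Cebpg (18.9 ± 1.83), Cebpd (4.34 ± 1.34) and Cebpe (2.18 ± 1.09) to Cebpa (1.41 ± 1.16 TPM; SD, n = 4). Within HSC the libraries parted only Cebpg from Cebpd, and the other neighbours in this order overlapped. In HPC the order was Cebpa (29.3 ± 3.67 TPM), Cebpg (24.0 ± 2.11), Cebpb (11.3 ± 8.27), Cebpd (7.78 ± 3.16) and Cebpe (6.96 ± 1.07 TPM), and the libraries parted only Cebpg from Cebpb. Cebpz, outside the bZIP family, stood above the means of all 5 at 40.9 ± 4.24 TPM in HSC and 41.3 ± 3.98 TPM in HPC.

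As shares of the summed TPM of the 5 bZIP genes, Cebpa made up 2.47 ± 1.19% in HSC and 37.2 ± 5.35% in HPC, Cebpb 45.8 ± 17.8% and 13.8 ± 9.05%, and Cebpg 38.3 ± 12.3% and 30.5 ± 3.58% (SD, n = 4 each). In HSC Cebpg led in replicates 1 and 3 and Cebpb in replicates 2 and 4, while Cebpa led in all 4 HPC libraries. Cebpb exceeded Cebpa by 7.65-fold to 48.1-fold in the HSC libraries, and Cebpa exceeded Cebpb by 1.39-fold to 7.45-fold in the HPC libraries. The sum itself was 55.2 ± 24.4 TPM in HSC and 79.4 ± 9.40 TPM in HPC, with overlapping ranges. In HSC it was highest in replicates 2 and 4, at 86.9 and 61.6 TPM, the libraries with the most Cebpb.

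**Figure D4:**
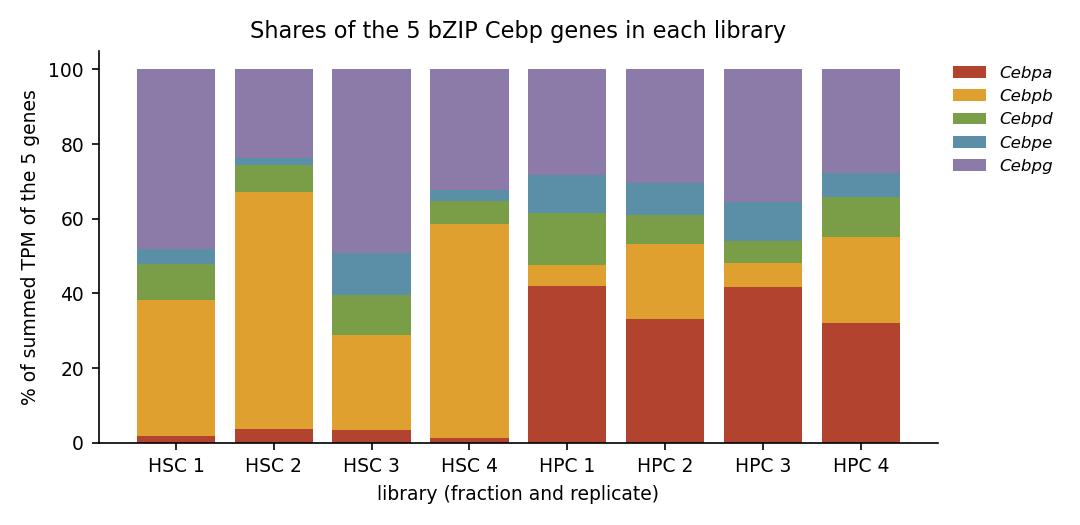
Share of each of the 5 bZIP genes in their summed TPM, 1 bar per library, HSC left of HPC. Cebpa takes 1.20% to 3.60% in HSC libraries and 32.1% to 42.0% in HPC libraries, and Cebpb takes 25.6% to 63.5% in HSC libraries and 5.63% to 23.1% in HPC libraries.

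Factors known to bind the enhancer of Cebpa in blood cells did not move as a block. Among 10 such genes edgeR called 5 higher in HSC and 2 lower and left 3 without a call, and their median log2 change was 0.23. Here and in the lists that follow, the counts stand against 19.5% of all genes tested called higher and 17.6% called lower. Higher were Gata2 (380 ± 14.0 CPM in HSC against 178 ± 16.0 CPM in HPC; log2 1.10 ± 0.09, edgeR adjusted p = 3.34e-07), Tal1, Lmo2, Fli1 and Meis1, all factors of stem and early progenitor cells. Lmo2, the most abundant of the list, was at 1249 ± 88.0 CPM in HSC against 906 ± 70.5 CPM in HPC. Lower were Spi1, which encodes the myeloid and lymphoid factor PU.1, and Cbfb, the partner of RUNX1. Spi1 was at 61.6, 75.9, 76.7 and 81.2 CPM in HSC libraries and at 166, 183, 149 and 167 CPM in HPC libraries (log2 −1.17 ± 0.11, edgeR adjusted p = 8.04e-07). Cbfb was at 158 ± 11.3 CPM in HSC against 307 ± 27.0 CPM in HPC (log2 −0.96 ± 0.09, edgeR adjusted p = 1.84e-06). Runx1 (−0.34), Myb (−0.17) and Erg (0.04) had no call.

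Among 8 regulators of C/EBPα messenger RNA or protein, the 3 Tribbles genes were higher in HSC, 2 other genes were lower and 3 had no call, and the median log2 change was 0.34. The Tribbles pseudokinases TRIB1 and TRIB2 bring C/EBPα to the ubiquitin ligase COP1, which marks it for breakdown, and their relative TRIB3 is known from the stress response. Trib2 was at 52.0, 53.2, 47.8 and 44.4 CPM in HSC libraries and 5.71, 15.3, 9.53 and 6.91 CPM in HPC libraries (log2 2.40 ± 0.24). Trib3 was at 33.8 ± 1.77 CPM in HSC against 5.22 ± 1.17 CPM in HPC (log2 2.69 ± 0.18, edgeR adjusted p = 3.11e-08), and Trib1 at 7.42 ± 0.996 CPM in HSC against 2.47 ± 1.89 CPM in HPC. All 3 were higher in HSC, where the Cebpa transcript was lower. The breakdown concerns the protein, which was not measured, and a link between the Tribbles genes and Cebpa was not tested. Cop1, listed under its older symbol Rfwd2, had no call (log2 0.43, edgeR adjusted p = 0.30). Sox4, placed in this list but known mainly as a gene that C/EBPα represses, was lower in HSC at 184 ± 23.0 CPM against 418 ± 76.7 CPM in HPC (log2 −1.18 ± 0.13), and Calr, which encodes calreticulin, known to bind the messenger of C/EBPα and hold back its translation, was lower by 0.60 on the log2 scale. Pcbp2, which encodes a translational repressor of C/EBPα (hnRNP E2) and was the most abundant of the list, had no call.

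Of 9 tested bZIP partners of C/EBP proteins edgeR called 3 higher and 1 lower in HSC and left 5 uncalled (median log2 change 0.05), a share near that of all genes. Ddit3, which encodes CHOP, a stress-induced C/EBP relative, was at 24.8 ± 2.33 CPM in HSC against 15.2 ± 3.18 CPM in HPC (log2 0.70 ± 0.17, edgeR adjusted p = 0.00455). Batf2 was at 15.0 ± 3.71 CPM in HSC against 3.29 ± 1.35 CPM in HPC (log2 2.18 ± 0.30), and Fos was the other gene higher. Nfil3, a repressor of the same superfamily needed for natural killer cells, was at 4.12 ± 0.732 CPM in HSC against 13.6 ± 0.540 CPM in HPC (log2 −1.72 ± 0.20, edgeR adjusted p = 1.14e-05). Atf4, the partner of C/EBPγ, had no call at 87.6 ± 15.4 CPM in HSC against 86.4 ± 14.5 CPM in HPC. Atf3 and Batf3 were too low to be tested.

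Genes known as C/EBPα targets were mostly lower in HSC, as Cebpa was. Of 16 tested, 12 were lower, none was higher by edgeR, and 4 had no call (median log2 change −1.97). At an unadjusted edgeR p under 0.05, and by DESeq2 and voom, 0 were higher as well, while limma on TPM called 2 higher. Granule genes that fell were Mpo (log2 −4.89 ± 0.39, edgeR adjusted p = 2.01e-07), Ctsg (−3.85), Ms4a3 (−3.02), Elane (−2.43) and Prtn3 (−0.71). Cytokine receptor genes that fell were Csf1r (−2.66), Csf3r (−1.77 ± 0.11, edgeR adjusted p = 1.18e-08) and Il6ra (−1.28), the receptors of M-CSF, G-CSF and interleukin 6. Csf3r was at 48.1, 54.2, 48.0 and 42.9 CPM in HSC libraries and at 175, 181, 146 and 159 CPM in HPC libraries. Hk3, a hexokinase of granulocytes, was at 16.1, 17.6, 17.6 and 13.3 CPM in HSC libraries and at 105, 80.3, 63.1 and 79.8 CPM in HPC libraries (log2 −2.34 ± 0.16). The transcription factor genes Irf8 (−2.42) and Gfi1 (−0.65) and the Fc receptor gene Fcgr3 (−2.16) fell too. Csf2ra (−0.08), Klf5 (0.72), Cd14 (1.28) and Mgst1 (0.23) had no call. HSC replicate 2 was the highest of the HSC libraries for 10 of the 16 genes, against 21.01% of all genes tested. HPC replicate 1 was the highest of the HPC libraries for 9 of the 16, against 23.6% of all genes tested. The neutrophil and monocyte markers of both libraries are given beside Cebpa above. Of those 10 markers only Itgam was called by edgeR, lower in HSC, with 6 lower at an unadjusted p under 0.05 and 0 higher in either count.

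**Figure D5:**
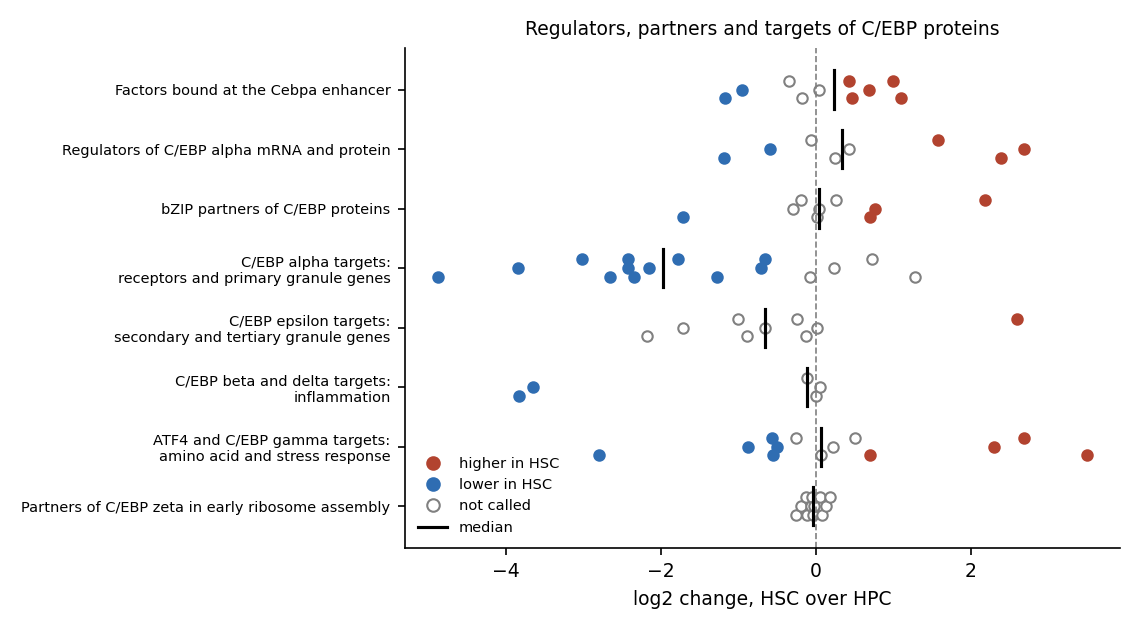
Log2 change, HSC over HPC, of the tested genes in 8 lists of regulators, partners and targets. Each point is a gene, filled where called by edgeR at an adjusted p under 0.05, and the black bar is the median of the list. The C/EBPα targets lie furthest to the left with a median of −1.97, and the partners of C/EBPζ cluster at −0.04.

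The late granule genes known as C/EBPε targets were mostly low in both fractions. Of 14, 5 were too low to be tested, and of the 9 tested 1 was higher in HSC, 0 were lower and 8 had no call (median log2 change −0.66). At an unadjusted edgeR p under 0.05 3 were lower, DESeq2 called 0 lower, and voom and limma on TPM 1 each. The gene that was higher was Mmp9, a gelatinase, at 1.31 to 2.16 CPM in HSC libraries and 0 to 0.446 CPM in HPC libraries (log2 2.60 ± 0.69, edgeR adjusted p = 0.00786). Chil3, the most abundant of the list, was at 2.38, 16.1, 3.22 and 3.53 CPM in HSC libraries and at 33.9, 2.93, 10.9 and 35.4 CPM in HPC libraries, with no call (edgeR adjusted p = 0.0619). Chil3 was called lower in 5 of 26 alternatives. Among these were the fits without HSC replicate 2 (−2.76, edgeR adjusted p = 0.00452) or HPC replicate 2 (−2.08, edgeR adjusted p = 0.0117). Ltf, Lcn2 and Camp, which define secondary granules, were at 0 to 0.537 CPM in every library.

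Of 12 inflammatory genes known to be driven by C/EBPβ and C/EBPδ, 7 were too low to be tested. Of the other 5, 2 were called lower and 3 were not called (median log2 change −0.12), and 0 were higher by edgeR at an adjusted or unadjusted p under 0.05 or by DESeq2, voom or limma on TPM. Ccl3, a chemokine, was at 1.49, 0.523, 1.61 and 1.11 CPM in HSC libraries and at 16.8, 19.5, 11.3 and 20.2 CPM in HPC libraries (log2 −3.84 ± 0.32, edgeR adjusted p = 4.01e-07), and Tnf, the tumour necrosis factor, was lower by 3.65 on the log2 scale. Ccl4, the neighbour of Ccl3 and the most abundant of the list, had no call at 23.2 ± 3.19 CPM in HSC against 25.1 ± 4.62 CPM in HPC (log2 −0.12, edgeR adjusted p = 0.609), but counting gene reads, introns included, called it lower (−1.24, edgeR adjusted p = 5.02e-06). The span of Ccl4 overlaps that of Ccl3, on the opposite strand, so gene reads of Ccl4 may hold reads of Ccl3, which was not tested. Il6, Il1b and Nos2 were at 0 to 0.477 CPM in every library. Ccl3 and Ccl4 were highest in replicates 2 and 4 among HPC libraries, as Cebpb was, but not among HSC libraries.

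Genes of the amino acid and stress response shared by ATF4 and C/EBPγ went both ways. Of 13 tested, edgeR called 4 higher and 5 lower in HSC and left 4 uncalled (median log2 change 0.07). Higher were Nupr1 (23.8 ± 2.67 CPM in HSC against 2.09 ± 0.255 CPM in HPC; log2 3.51 ± 0.19, edgeR adjusted p = 5.32e-09), a stress-induced chromatin protein, Trib3, Ddit3 and Asns, the asparagine synthetase (log2 2.30 ± 0.15). Trib3 and Ddit3 were already counted above, among the regulators of C/EBPα and the bZIP partners. Lower were the serine and folate enzymes Phgdh (230 ± 13.8 CPM in HSC against 423 ± 30.9 CPM in HPC; log2 −0.88 ± 0.09), Psat1 (−0.57), Shmt2 (−0.50) and Mthfd2 (−0.56), and the lipoprotein receptor gene Vldlr (−2.80 ± 0.17, edgeR adjusted p = 1.23e-08). The amino acid transporter genes Slc7a5 (−0.25) and Slc3a2 (0.07) had no call.

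None of 12 partners of C/EBPζ in early ribosome assembly was called by edgeR, at a median of −0.04 and with changes from −0.25 to 0.18. Rrp1b alone had an unadjusted p under 0.05 and was lower (log2 −0.25, edgeR adjusted p = 0.0567), and DESeq2 and voom called 1 gene lower each and 0 higher. Noc2l, the most abundant of the list, was at 192, 221, 202 and 221 CPM in HSC libraries and 221, 240, 158 and 243 CPM in HPC libraries (log2 −0.05 ± 0.12).

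Within 50 kb of the 6 genes, 13 other genes passed the filter, and 3 of them (23.1%, against 37.1% of all genes tested) were called, all lower in HSC. These were Spidr and Prkdc, the catalytic subunit of the DNA-dependent protein kinase (log2 −0.81 ± 0.15), near Cebpd, and Acin1, a splicing-associated protein gene (−0.26 ± 0.09), near Cebpe, whose call was lost in 13 of 26 alternatives. No tested gene lay within 50 kb of Cebpa. Pepd, a dipeptidase gene 1714 bases from Cebpg, was at 69.0 ± 7.71 CPM in HSC against 69.8 ± 6.21 CPM in HPC and had no call, although Cebpg beside it was lower.

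Genes whose levels followed a C/EBP gene over the 8 libraries were taken as the 3 with the highest Pearson r of log2 CPM. The points hold both fractions, so a high r mostly repeats the difference between them where the C/EBP gene changed. For Cebpa these were Sstr2, a somatostatin receptor gene (r = 0.996), Nde1 (0.995) and Miip (0.994), all lower in HSC. Sstr2 was at 0.358, 1.41, 0.402 and 0.422 CPM in HSC libraries and 24.3, 22.7, 31.8 and 29.8 CPM in HPC libraries, and so was also highest in HSC replicate 2 among HSC libraries. For Cebpe they were Rin3 (0.993), Icosl (0.989) and Epha7 (0.983), and for Cebpg S100a10 (0.971), Cox5a (0.971) and Ube2a (0.969), all lower in HSC. For Cebpd the closest were Ltv1, Fastkd3 and Hexa (0.947 to 0.942) and for Cebpz Twistnb, Ufc1 and Dhdh (0.892 to 0.876), none of which was called between the fractions.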

How the data were processed

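RNA-seq of 8 libraries, 4 HSC and 4 HPC, was grouped by title. Per the labels' protocols, the SMARTer Pico kit gave the cDNA and Nextera XT the libraries. The build was mm10, per the submitters' processing notes; which aligner and counter were used, and whether by strand, is not given in the sources used here. Per the file headers, the deposited tables give counts of exon, intron and gene reads, total or uniquely placed, and the deposited TPM was scaled by the authors to 1000000 per library. Rows of a gene ID were summed.

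The test of total exon reads was that of edgeR 4.0.16 under R 4.3.3 (filterByExpr, TMM, quasi-likelihood F test, no covariate), adjusted over 12749 genes at a threshold of 0.05. SE is the absolute log2 change over the root of the F statistic. CPM are TMM-scaled, and folds are ratios of mean CPM. Levels between genes were compared in TPM only. The biological coefficient of variation was 18.3%. Reads are not independent molecules, since PCR copies were not removed by molecular identifiers. On simulated counts over 12597 genes for this comparison edgeR called 32 of 100 genes at a true fold of 1.5 and 73 of 100 at a true fold of 2, and 6 of 111 calls were false. Only 100 genes were changed at each fold, a far smaller share than the 37.1% called in the real comparison. The adjustment of p depends on that share, so these rates hold for the simulated setting only. No pair of libraries looked like 1 library deposited again.

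The 6 genes, the 14 gene lists and the alternatives were chosen with earlier results of these data known. Named are all 6 genes; from each list of regulators, partners or targets the 3 called genes with the smallest adjusted p and the most abundant gene; the most abundant marker of each cell type list; tested neighbours within 50 kb; and the 3 most alike genes. Further list members were named after their values were seen. Trbc1, 1 of the 10 lymphocyte markers, has no exon counts.

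Alternatives were scaling by RLE or upper quartile, no filter or 50 reads in 4 libraries, unique or gene reads, main chromosome rows, DESeq2 1.42.0, voom and limma 3.58.1 on log2(TPM + 0.5) or (TPM + 0.1), a threshold of 0.01, a tested fold of 1.5, the replicate number as a block, and leaving out libraries. Removing the trend on G and C content, and leaving out the libraries numbered 2 and 4, were added after seeing the data. Promoters are from RefSeq GRCm38.p6, transcripts from GENCODE on GRCm38. The replicate numbers do not pair the libraries by any label.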

Additional observations from a re-analysis of the deposited data

Results flagged for a closer look

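In 12 of 132 groups of 4 libraries, 1 library lay far from the other 3. The cut-off gives about 1 in 20 by chance for independent values. Several of the genes were named for following a C/EBP gene, so the count is no test against that rate. Among the C/EBP genes these were Cebpa in HSC replicate 2 (3.973 CPM, against 0.894 to 1.36 CPM in the other HSC libraries) and Cebpz in HPC replicate 4 (108.1 CPM, against 79.2 to 83.0 CPM in the other HPC libraries). HSC replicate 2 was also apart for Mpo (136.1 CPM), Chil3 (16.1 CPM), Sstr2 (1.411 CPM) and Prkdc (12.76 CPM), in each case as the highest library. HPC replicate 4 was also apart for Twistnb (83.14 CPM) and Dhdh (19.34 CPM), as the highest, and for Rin3 (111.4 CPM), as the lowest. Icosl was apart in HSC replicate 3 (5.533 CPM, the highest), the HSC library with the most Cebpe. Sstr2, Twistnb, Dhdh, Rin3 and Icosl were named for following Cebpa, Cebpz or Cebpe over the libraries. A shared high or low library is thus partly what chose them. The others were Ddit3 in HSC replicate 1 (21.28 CPM, the lowest) and Vldlr in HPC replicate 1 (51.85 CPM, the highest).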

How the results depend on the processing

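Cebpa kept its call in all 26 alternatives (log2 −5.25 to −4.12) and Cebpe in 25 (−2.08 to −1.54 over the 26). Cebpd, called lower at −0.92, lost its call with limma on TPM (−0.77 and −0.72 with 0.1 and 0.5 added), unique reads (−0.88), upper quartile scaling (−0.84), voom (−0.73), a tested fold of 1.5 or a threshold of 0.01 (−0.92), and lay between −1.14 and −0.72 with 1 library left out. Cebpg (−0.40) lost it with a tested fold of 1.5 or a threshold of 0.01 (−0.40), upper quartile scaling (−0.32) and without both libraries numbered 2 (−0.46), with −0.48 to −0.30 over single libraries left out. Cebpb passed the threshold in 2 of the 8 fits that left out a library, with 0.75 to 1.81. Cebpz was at 0.024 without HPC replicate 4 and between −0.14 and 0.024 over those fits. The count of the 6 genes lower in HSC, 4, was 2 with upper quartile scaling, a tested fold of 1.5 or a threshold of 0.01, and 2 to 4 with 1 library left out; the count higher was 0 to 1 with 1 library left out. Where no value above shows it, the cause was not tested. Upper quartile scaling moved the median of all genes by 0.08.

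Replicate numbers are shared by the labels of both fractions, but deviations of same-numbered libraries correlated by −0.18 to 0.31, and those of different numbers by −0.41 to 0.20, with 4 of 8 libraries, those numbered 3 and 4, correlating best with their own number. The numbers are thus not taken to pair the libraries. With the replicate block Cebpb was called higher (1.24, edgeR adjusted p = 0.00133), also with the G and C trend removed (1.15, 0.00215), and Cebpd was not called (−0.85 and −0.86); 1 gene was then higher in both fits. Without the libraries numbered 2 and 4, chosen after the data were seen for their Cebpb level and leaving 2 libraries a fraction, Cebpb was called higher (1.28), Cebpe (−1.61), Cebpd (−1.12) and Cebpg (−0.50) were not called, Cebpz was at 0.078, and 1 gene was higher and 1, Cebpa, lower.

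Some other named genes near 0, with no call, changed sign; of these Ccl4 was called lower with gene reads (−1.24). With upper quartile scaling Pcbp2 was at 0.016, Noc2l at 0.032, Ufc1 at 0.0035 and Pepd at 0.062. With limma on TPM, at either added value, Noc2l was at 0.032 and Pepd at 0.041. Without both libraries numbered 2, Pcbp2 was at 0.018, Ccl4 at 0.037 and Pepd at 0.034. Without the libraries numbered 2 and 4, Pcbp2 was at 0.019, Noc2l at 0.053, Ufc1 at 0.071, Dhdh at 0.012 and Slc7a8 at 0.17. Gm26637 was at −0.12 with gene reads and −0.078 with unique reads. With 1 library left out the ranges were −0.20 to 0.0090 for Ccl4, −0.18 to 0.011 for Noc2l, −0.13 to 0.0073 for Ufc1, −0.22 to 0.0025 for Slc7a8, −0.096 to 0.032 for Pepd and −0.090 to 0.17 for Gm26637. Depth limits Cebpa in HSC, with 15 to 76 reads, and Cebpe, with 17 to 43.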

Other observations

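Markers of other blood cells, listed to show what else the fractions held, went in both directions. Among 9 lymphocyte markers tested edgeR called 6 higher in HSC, Cd3e and Klrb1c among them, while Nkg7, a granule gene of natural killer cells and the most abundant, was lower at 44.6 ± 8.40 CPM in HSC against 330.4 ± 40.8 CPM in HPC (log2 −2.89 ± 0.14, edgeR adjusted p = 1.65e-09). Of 8 red cell markers tested, 4 were higher in HSC by edgeR, DESeq2 and limma on TPM, 7 by voom and 7 at an unadjusted edgeR p under 0.05, and 0 were lower by any of these. Hba-a1 was at 105 ± 56.2 CPM in HSC against 26.9 ± 21.9 CPM in HPC, and its reads may be split with the near-identical Hba-a2. Of 10 macrophage and dendritic cell markers, 2 were lower in HSC, Flt3 and Itgax, and 0 were higher by those tools or at an unadjusted p under 0.05. Flt3, a cytokine receptor gene of multipotent progenitors as well as of dendritic cells, was at 16.5, 22.0, 24.2 and 21.1 CPM in HSC libraries and at 775, 811, 752 and 637 CPM in HPC libraries. Kit, the most abundant sort marker, had no call at 924 ± 185 CPM in HSC against 747 ± 66.4 CPM in HPC (edgeR adjusted p = 0.080), though it was called higher in 6 of 26 alternatives. Of the mast cell, basophil and eosinophil markers, Prss34 was the most abundant, at 11.6 ± 12.3 CPM in HSC against 65.8 ± 42.9 CPM in HPC.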
